A study of Mus musculus with 27 samples.

Results

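The 8 genes described here, Rnf19b, C77080, Marcksl1, Ago1, Sh3bgrl3, Man1c1, Eloa and Fblim1, lie within 10 Mb of Cnr2 on mouse chromosome 4. They are 8 of 231 tested genes in that window and 8 of 14668 tested genes in all, out of 23995 genes in the deposited table. They were chosen by a measured value: they differed most between unstimulated CB2-/- and wild-type microglia. Those unstimulated differences are therefore given as a description only. The tests of members below compare stimulated cells and the wild-type libraries that the choice did not use. Their spread was estimated from all 27 libraries, including those of the choice. Values less the series shift, explained below, also use libraries of the choice and are a description. Microglia are the brain's own macrophages; those sequenced here were raised from newborn cortex as mixed glia for about 14 days, shaken off and rested for 24 h before their bulk RNA was taken. Donors were C57BL/6J animals (wild type) and CB2-/- animals of the strain B6.Cg-Cnr2tm1Zim, which carry a targeted allele of Cnr2, the gene for cannabinoid receptor 2. Each genotype was left unstimulated or given for 16 h either CpG (1 nmol/ml), PolyI:C, or LPS (100 ng/ml) together with interferon-γ (20 ng/ml). CpG acts on Toll-like receptor 9, PolyI:C on 3 and LPS on 4, and interferon-γ acts on its own receptor. Unstimulated wild type had 6 libraries and each further group had 3, which makes 27 in 8 groups.

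A gene that lies close to a targeted gene is inherited together with it, so a congenic knockout line can carry neighbouring DNA from the strain in which the allele was made. Neighbouring genes can then differ between knockout and wild type without any action of the missing protein, and they can equally answer to it or to the cell's state. Which of these applies to the genes below was not tested. The 8 genes have different roles. Marcksl1 encodes a membrane and actin-binding protein that is a substrate of protein kinase C and was first known from macrophages. Rnf19b encodes a RING-between-RING ubiquitin ligase of natural killer cells and macrophages. Man1c1 encodes a Golgi mannosidase that trims N-linked sugars, and Ago1 an Argonaute protein that carries microRNAs to their targets. Sh3bgrl3 encodes a small thioredoxin-like protein, and Fblim1 encodes migfilin, a filamin-binding adapter at cell-matrix adhesions. Eloa encodes elongin A, the large subunit of a transcription elongation factor. C77080 still carries a clone name in mouse, and its human counterpart belongs to the Nance-Horan syndrome gene family.

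Genotype could not be separated from the library number series. Every stimulated wild-type library has a number from 3012 to 3023 and every CB2-/- library one from 2048 to 2059, so for stimulated cells genotype and number series cannot be told apart. Unstimulated wild type has both kinds: replicates 1 to 3 are libraries 3012 to 3014 and replicates 4 to 6 are libraries 2186 to 2188. A value less the series shift, below, is a genotype difference minus the difference between these wild-type sets. Libraries 2186 to 2188 also entered the choice of the genes, so such a value is given as a description, without a p-value. The labels name a TruSeq and a SMART-Seq2 protocol without assigning them to libraries. The transcripts Gm19220, Gm26822 and Grip2 together held 0.00115 to 0.00453% of the summed normalised count in libraries 3012 to 3023 and 0.0741 to 50.8% in the others, most in CB2-/- PolyI:C replicate 2. Over all libraries the summed normalised count ran from 6341299 to 14151982, with 13628 to 20643 genes above 0, and replicates correlated at r of 0.866 to 0.969 across genes (no identical pair among 27). Microglial markers were high everywhere, with 12 of 12 above 0 in every library. Their sum moved between the wild-type number series without stimulus, and between genotypes in stimulated cells. Without stimulus the sum was 106418 to 124169 in wild-type replicates 1 to 3 and 65405 to 82554 in replicates 4 to 6. In unstimulated CB2-/- cells it was 63027 to 67277. Stimulated cells differed as follows. The microglial sum was 56613 to 58312 in wild type and 35259 to 37384 in CB2-/- with LPS plus interferon-γ. In the same order it was 52946 to 68818 and 48894 to 51448 with PolyI:C, and 64900 to 78232 and 39256 to 39981 with CpG. The monocyte and neutrophil markers, 4 of 6 of them in the table, were low but moved as well: 62.2 to 80.3 and 44.5 to 55.2, 235 to 356 and 28.1 to 48.7, and 264 to 379 and 44.1 to 82.2 in the same order, with S100a9 listed at 0 in every group but unstimulated and LPS-treated CB2-/-. Their part in the genotype differences below was not tested. Cnr2 itself was detected in all CB2-/- libraries, at 317 to 454 without stimulus, so its level does not check the genotype labels. In wild type its level was 172 to 233 without stimulus and 0 to 21.96 with the 3 stimuli, against 217 to 412 in stimulated CB2-/- cells.

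The values that chose the genes come first, as a description. Against wild-type libraries 2186 to 2188, unstimulated CB2-/- microglia had higher levels of Marcksl1 (a log2 difference of 1.80 ± 0.22, ± SE), Rnf19b (0.64 ± 0.10) and Eloa (0.61 ± 0.11). They had lower levels of C77080 (-5.62 ± 0.70), Man1c1 (-1.18 ± 0.15), Fblim1 (-1.03 ± 0.18), Sh3bgrl3 (-0.86 ± 0.13) and Ago1 (-0.79 ± 0.15). All log2 values here are differences of log2(normalised count + 1), a scale that understates the change of a low gene. In this comparison 9.9% of all tested genes passed an adjusted p of 0.05, and nothing is read from 8 of 8 members doing so, because it is how they were picked. Ago1, the eighth of the 231 genes by p, was the last inside the choice, and the next were Sdc3 (0.58) and Nudc (0.56). Against the other wild-type libraries, 3012 to 3014, 22.5% of all genes passed and 6 members did. Fblim1 (0.15 ± 0.18) and Eloa (-0.05 ± 0.11) were the members that did not. Between the wild-type series themselves, 12% of genes passed, 4 members among them: C77080 (2.79 ± 0.70, libraries 2186 to 2188 minus 3012 to 3014), Fblim1 (1.18 ± 0.18), Eloa (-0.66 ± 0.11) and Man1c1 (-0.66 ± 0.15). For Fblim1 and Eloa, the series difference within wild type was at least as large as their genotype difference against libraries 2186 to 2188. Nothing is read from the counts of members in these comparisons either, because they use libraries of the choice.

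**Figure D1:**
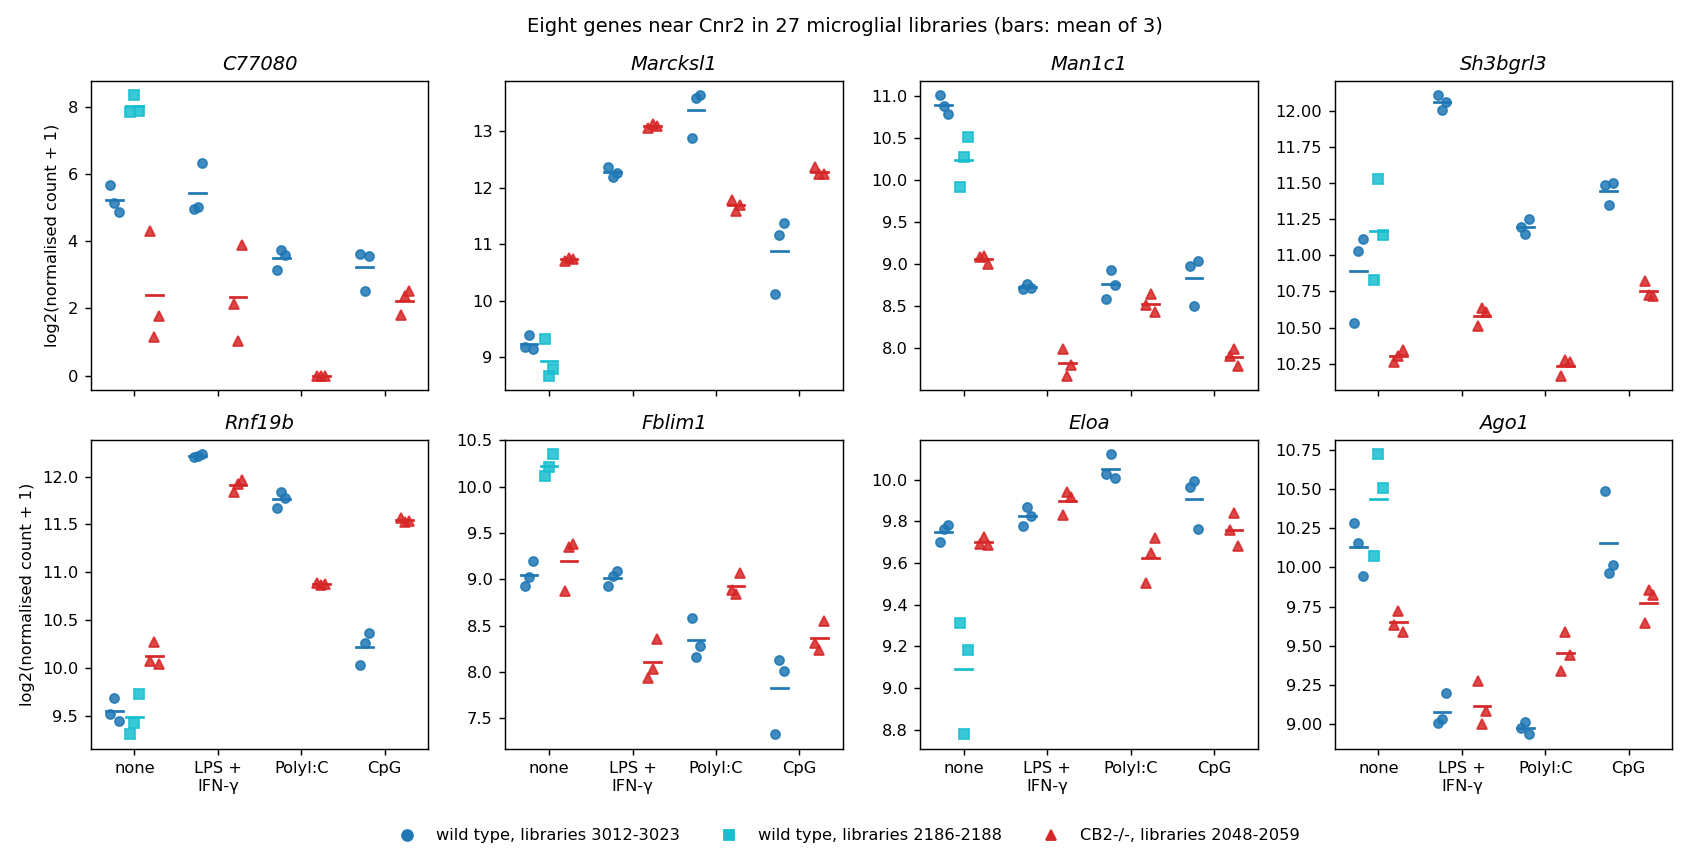
Normalised counts of the 8 genes in all 27 libraries, on a log2(value + 1) axis that differs by panel and does not start at 0, by stimulus and genotype; bars are means of 3 libraries on that scale. Marcksl1 and Rnf19b rise with every stimulus, and Man1c1 falls in both genotypes. Unstimulated wild-type libraries 2186 to 2188 stand apart from 3012 to 3014 for C77080, Man1c1, Fblim1 and Eloa.

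Marcksl1 was the member most strongly induced, and its genotype difference changed direction with the stimulus. In unstimulated wild type its normalised counts were 577, 669 and 566 in replicates 1 to 3, and they were 5245, 4672 and 4891 with LPS plus interferon-γ, 7535, 12307 and 12743 under PolyI:C and 1112, 2291 and 2652 with CpG. The rises in wild type were 3.03 ± 0.22, 4.13 ± 0.22 and 1.65 ± 0.22 on the log2 scale (adjusted p 4.47e-11, 1.46e-13 and 1.91e-06). PolyI:C thus gave the highest wild-type level and CpG the lowest of the stimulated ones, where replicate 1 lay well below the other libraries. In CB2-/- cells the order was another: 1660.5, 1728 and 1698 without stimulus, 8496, 8981 and 8772 with LPS plus interferon-γ, 3523, 3079 and 3318 under PolyI:C and 5241, 4858 and 4866 with CpG. The genotypes did not overlap under any stimulus. CB2-/- cells had more Marcksl1 RNA than wild type with LPS plus interferon-γ (0.83 ± 0.22, adjusted p 0.0115) and with CpG (1.40 ± 0.22, adjusted p 3.35e-05). With PolyI:C they had less (-1.68 ± 0.22, adjusted p 1.98e-06), a value that was -0.99 with quantile scaling and -1.12 in the batch-corrected table. In bulk RNA, fewer cells of a type and less RNA per cell cannot be told apart, here or for the genes below.

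Rnf19b was induced by all 3 stimuli as well, and it too differed between genotypes in a direction that depended on the stimulus. Its wild-type counts went from 733, 819 and 697 in unstimulated replicates 1 to 3 to 4707, 4756 and 4823 with LPS plus interferon-γ. They were 3265, 3655 and 3511 under PolyI:C and 1043, 1228 and 1318 with CpG. CpG was the weakest inducer in wild type, at a log2 rise of 0.67 ± 0.10, against 2.67 ± 0.10 for LPS with interferon-γ and 2.21 ± 0.10 for PolyI:C (adjusted p 1.19e-05, 3.27e-16 and 9.11e-15). In CB2-/- cells the counts were 1077, 1231 and 1051 without stimulus, 3666, 3892 and 3987 with LPS plus interferon-γ, 1888, 1863 and 1872 under PolyI:C and 3032, 2950.3 and 2964 with CpG. No CB2-/- library overlapped a wild-type library of the same stimulus. With CpG, CB2-/- cells held more Rnf19b RNA (1.32 ± 0.10, adjusted p 7.61e-10), and with PolyI:C less (-0.89 ± 0.10, adjusted p 2.65e-07, and -0.39 with quantile scaling). The smaller deficit with LPS plus interferon-γ, -0.31 ± 0.10, passed narrowly (adjusted p 0.042). It missed the threshold without any 1 of the 6 libraries (adjusted p up to 0.144), with no filter (adjusted p 0.0701), without trend (adjusted p 0.0876) and with quantile scaling (-0.00048, adjusted p 0.999), and it was -0.17 (adjusted p 0.0471) in the batch-corrected table.

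The promoters of the inducible genes Marcksl1, Rnf19b and Sh3bgrl3 are shown because these are the members whose wild-type level rose with LPS plus interferon-γ. The windows, from RefSeq, run from 250 bases before to 30 bases after the annotated start on GRCm38.p6, 5′ to 3′ on the gene's strand, and capitals mark the GC box (GGGCGG) and TATA box (TATAAA) letters found on either strand.
Marcksl1, chr4:129513331-129513610, plus strand: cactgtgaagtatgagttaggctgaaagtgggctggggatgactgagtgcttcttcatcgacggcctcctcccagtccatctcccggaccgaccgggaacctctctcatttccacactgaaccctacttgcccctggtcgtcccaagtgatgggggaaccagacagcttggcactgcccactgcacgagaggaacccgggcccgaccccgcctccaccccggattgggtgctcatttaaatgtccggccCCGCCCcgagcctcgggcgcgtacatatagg
Rnf19b, chr4:129057894-129058173, plus strand: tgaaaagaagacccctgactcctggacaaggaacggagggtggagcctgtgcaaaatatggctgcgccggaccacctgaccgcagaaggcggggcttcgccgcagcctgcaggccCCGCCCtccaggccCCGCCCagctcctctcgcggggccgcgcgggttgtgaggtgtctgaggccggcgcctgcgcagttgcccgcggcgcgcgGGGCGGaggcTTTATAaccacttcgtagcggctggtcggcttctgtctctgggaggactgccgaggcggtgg
Sh3bgrl3, chr4:134128704-134128983, minus strand: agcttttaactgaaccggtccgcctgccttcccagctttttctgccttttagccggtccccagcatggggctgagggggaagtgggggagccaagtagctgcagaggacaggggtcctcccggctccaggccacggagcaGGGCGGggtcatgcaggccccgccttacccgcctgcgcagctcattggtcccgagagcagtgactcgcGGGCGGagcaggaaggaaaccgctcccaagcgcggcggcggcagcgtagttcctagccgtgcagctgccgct
Each of the 8 members had at least 1 such window, 13 in all. Rnf19b had 3 GC boxes and the one TATA box among the 13, Sh3bgrl3 had 2 GC boxes and Marcksl1 had 1; of all 32851 promoter windows of this length, 34.7% held a GC box and 13.1% a TATA box. The interferon response core GAAANNGAA (8.06% of all windows) and the κB letters GGGNNTTTC (4.07%) were in none of the 13, and the STAT letters TTCNNNGAA (7.83%) were in 1 window of C77080. Both strands were searched, and a missing match says only that these letters are not in these windows.

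Man1c1 fell in wild type with all 3 agents, and Ago1 fell with LPS plus interferon-γ and with PolyI:C. Man1c1 counts in wild type were 2069, 1885 and 1767 in unstimulated replicates 1 to 3, 414, 435 and 417 with LPS plus interferon-γ, 382, 488 and 431 under PolyI:C and 502, 360.5 and 524 with CpG. The falls were of nearly one size, -2.17 ± 0.15, -2.14 ± 0.15 and -2.06 ± 0.15 on the log2 scale (adjusted p 9.53e-12, 1.19e-11 and 4.9e-11). CB2-/- cells held 541, 548 and 512 without stimulus, 252, 202 and 221 with LPS plus interferon-γ, 363, 397 and 343 under PolyI:C and 238, 252 and 220.1 with CpG. The genotypes overlapped with PolyI:C alone, where the difference did not pass (-0.23 ± 0.15, adjusted p 0.247). CB2-/- cells had less Man1c1 RNA with LPS plus interferon-γ (-0.91 ± 0.15, adjusted p 9.73e-05) and with CpG (-0.95 ± 0.15, adjusted p 2.32e-05). Less the series shift these values were -0.25 and -0.29, and the first was -0.55 (adjusted p 0.00113) in the batch-corrected table.

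Ago1 counts in wild type were 1248, 1139.6 and 983 in unstimulated replicates 1 to 3, 513, 524 and 586 with LPS plus interferon-γ, 501, 516 and 488 under PolyI:C and 1436, 996 and 1035 with CpG. The change with CpG was 0.03 ± 0.15 (adjusted p 0.916), and the level fell with LPS plus interferon-γ (-1.05 ± 0.15, adjusted p 2.12e-06) and with PolyI:C (-1.16 ± 0.15, adjusted p 4.77e-07). In CB2-/- cells Ago1 ran at 794, 844 and 769 without stimulus, 618, 510.5 and 541 with LPS plus interferon-γ, 647, 768 and 695 under PolyI:C and 801, 925 and 907 with CpG. With PolyI:C the genotypes did not overlap and CB2-/- cells were higher (0.48 ± 0.15, adjusted p 0.0125). That call was lost without CB2-/- PolyI:C replicate 2 (0.42, adjusted p 0.0616) and in the batch-corrected table (0.18, adjusted p 0.118). Of all libraries, that replicate had the largest share of its summed normalised count in Gm19220, Gm26822 and Grip2 together. Less the series shift the value was 0.18. With LPS plus interferon-γ the genotypes overlapped (0.04 ± 0.15, adjusted p 0.897). With CpG they did not overlap, but the difference missed the threshold (-0.38 ± 0.15, adjusted p 0.0573) and passed without wild-type CpG replicate 2 (-0.48, adjusted p 0.0312) or replicate 3 (-0.45, adjusted p 0.042), with quantile scaling (-0.37, adjusted p 0.0472) and in the batch-corrected table (-0.43, adjusted p 0.000511). Less the series shift it was -0.69.

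Sh3bgrl3 was the one member called lower in CB2-/- cells under every stimulus. Wild-type counts were 1478, 2093 and 2219.6 in unstimulated replicates 1 to 3, 4421, 4114 and 4275 with LPS plus interferon-γ, 2346, 2271 and 2434 under PolyI:C and 2874, 2608 and 2892 with CpG. CB2-/- counts were 1228, 1264 and 1298, then 1456, 1589 and 1557, 1149, 1239.5 and 1225 and 1813, 1691 and 1686 in the same order. Every CB2-/- library lay below every wild-type library of its stimulus. The differences were -1.48 ± 0.13 with LPS plus interferon-γ, -0.96 ± 0.13 with PolyI:C and -0.69 ± 0.13 with CpG (adjusted p 2.92e-08, 4.2e-06 and 0.000373). Each of them was larger than the wild-type response to the same agent, which was 1.17 ± 0.13 for LPS with interferon-γ, 0.31 ± 0.13 for PolyI:C and 0.55 ± 0.13 for CpG (adjusted p 1.15e-07, 0.0716 and 0.00206). Quantile scaling took the genotype difference with PolyI:C to -0.51, the response to LPS plus interferon-γ to 0.44 and the PolyI:C response to -0.33 (adjusted p 0.0039, 0.00782 and 0.0483). The PolyI:C response passed without unstimulated wild-type replicate 3 (0.42, adjusted p 0.025) and in the batch-corrected table (0.24, adjusted p 0.0177). The CpG response missed the threshold with only the compared groups in the fit (adjusted p 0.0733) and was 0.33 in the batch-corrected table. Sh3bgrl3 overlaps Ubxn11 on the other strand, and reads from the pair cannot be told apart where strand was not kept.

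Fblim1, the gene for migfilin, differed between genotypes in a direction that depended on the stimulus and, in part, on the processing. Its wild-type counts were 485, 521 and 587 in unstimulated replicates 1 to 3 and 1110.1, 1187 and 1308 in replicates 4 to 6, and the sets did not overlap. They were 485, 525 and 545 with LPS plus interferon-γ, 383, 286 and 309 under PolyI:C and 159, 279 and 257 with CpG, so wild-type cells lost Fblim1 RNA with PolyI:C (-0.71 ± 0.18, adjusted p 0.00239) and CpG (-1.23 ± 0.18, adjusted p 6.29e-06). With LPS plus interferon-γ the change was -0.03 ± 0.18 (adjusted p 0.912). CB2-/- counts were 467, 649.9 and 667 without stimulus, 244, 261 and 327 with LPS plus interferon-γ, 470.5, 458 and 536 under PolyI:C and 316, 300.3 and 372 with CpG. The genotypes did not overlap under any stimulus: CB2-/- cells were lower with LPS plus interferon-γ (-0.91 ± 0.18, adjusted p 0.00089) and higher with PolyI:C (0.59 ± 0.18, adjusted p 0.0135) and CpG (0.54 ± 0.18, adjusted p 0.0273). The higher levels with PolyI:C and CpG changed with the processing. In the batch-corrected table they were 0.07 and -0.03 (adjusted p 0.724 and 0.895), and the wild-type falls were -0.41 and -0.69 there. Less the series shift the 3 genotype differences were -2.09, -0.59 and -0.64 with LPS plus interferon-γ, PolyI:C and CpG. Leaving out wild-type PolyI:C replicate 2 (0.50, adjusted p 0.0673) or CB2-/- PolyI:C replicate 3 (0.52, adjusted p 0.0583) ended the PolyI:C call. Leaving out wild-type CpG replicate 1 (0.29, adjusted p 0.212), CB2-/- CpG replicate 1 (0.57, adjusted p 0.0517) or CB2-/- CpG replicate 3 (0.45, adjusted p 0.123) ended the CpG call, as did library weights (0.34, adjusted p 0.129) and fitting only the compared groups (adjusted p 0.173).

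Eloa kept to a narrow range outside 1 set of libraries. Its wild-type counts were 833, 867 and 881 in unstimulated replicates 1 to 3, against 635, 438 and 580.4 in replicates 4 to 6, and 878, 935 and 905 with LPS plus interferon-γ, 1043, 1115 and 1028 under PolyI:C and 998, 1018 and 869 with CpG. CB2-/- counts were 826, 844 and 822 without stimulus, 909, 981 and 967 with LPS plus interferon-γ, 725, 801 and 843 under PolyI:C and 864, 914 and 819 with CpG. Apart from wild-type replicates 4 to 6, every library lay between 725 and 1115, and all of those 3 lay below that range. The genotypes overlapped with LPS plus interferon-γ (0.07 ± 0.11, adjusted p 0.719) and with CpG (-0.15 ± 0.11, adjusted p 0.339). With PolyI:C CB2-/- cells were lower (-0.43 ± 0.11, adjusted p 0.00314). That difference was -0.16 (adjusted p 0.335) with quantile scaling and -0.10 (adjusted p 0.346) in the batch-corrected table, where the difference with LPS plus interferon-γ passed (0.26, adjusted p 0.0219). Less the series shift the 3 differences were 0.73, 0.23 and 0.51 with LPS plus interferon-γ, PolyI:C and CpG, values that carry the low level of wild-type replicates 4 to 6. The wild-type rise with PolyI:C, 0.30 ± 0.11 (adjusted p 0.0259), became -0.10 with quantile scaling (adjusted p 0.534). It also missed the threshold without unstimulated wild-type replicate 1 (0.28, adjusted p 0.0752) or wild-type PolyI:C replicate 2 (0.27, adjusted p 0.0901), with no filter (adjusted p 0.0523) and in the batch-corrected table (0.19, adjusted p 0.0563).

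C77080 was by far the lowest member, and its largest values were all in 1 set of wild-type libraries. It had counts of 228, 325 and 234 in unstimulated wild-type replicates 4 to 6, against 49.5, 34.5 and 28.4 in replicates 1 to 3. Stimulated wild type held 30.4, 31.4 and 79.5 with LPS plus interferon-γ, 7.83, 12.4 and 11.2 under PolyI:C and 11.2, 4.69 and 10.8 with CpG. CB2-/- cells held 18.6, 1.23 and 2.39 without stimulus, 3.38, 1.04 and 13.8 with LPS plus interferon-γ and 2.49, 4.21 and 4.70 with CpG, and the gene was listed at 0 in all 3 PolyI:C libraries. It was lower in CB2-/- cells with LPS plus interferon-γ (-3.09 ± 0.70, adjusted p 0.0034, and -5.88 less the series shift). No fold is given for PolyI:C, although the libraries do not overlap (adjusted p 0.000412 on the log2 scale). With CpG the genotypes overlapped (-0.99 ± 0.70, adjusted p 0.329), and the difference passed in the batch-corrected table (-1.74, adjusted p 0.00281) and was -3.79 less the series shift. The wild-type fall with CpG, -2.004 ± 0.70, had an adjusted p of 0.0285 and missed the threshold without unstimulated replicate 1 (-1.79, adjusted p 0.0957), unstimulated replicate 2 (-2.04, adjusted p 0.0526) or CpG replicate 2 (-1.65, adjusted p 0.112). It also missed it with a pseudocount of 0.1, no filter, quantile scaling, library weights and only the compared groups in the fit (adjusted p 0.0681, 0.0547, 0.104, 0.113 and 0.0823), and was -1.15 (adjusted p 0.0365) in the batch-corrected table. Against all 6 unstimulated libraries, which include those used in the choice, it was -3.40. The wild-type response of C77080 to PolyI:C, -1.73 ± 0.70, missed the threshold (adjusted p 0.0517). It passed with a pseudocount of 5 and without trend (adjusted p 0.0139 and 0.0434). It also passed in the batch-corrected table (-1.11, adjusted p 0.0373) and with only the compared groups in the fit (adjusted p 0.0344). C77080 overlaps Yars on the other strand, so reads from the pair may be mixed.

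Markers of fibroblasts and astrocytes, other cells of mixed glial cultures, were highest among unstimulated cells in wild-type replicates 4 to 6, as were C77080 and Fblim1. The 8 fibroblast and meningeal markers summed to 37839 to 60674 in wild-type replicates 4 to 6 and to 5140 to 31701 in replicates 1 to 3. In unstimulated CB2-/- cells the sum was 13521 to 14760. In this order 8, 3 and 7 of the 8 markers were above 0 in every library. The 9 astrocyte markers summed to 1600 to 2674, 205 to 1077 and 211 to 310 in the same order, with 9, 6 and 8 of 9 above 0 in every library. Between wild-type replicates 1 to 3 and CB2-/- cells the fibroblast sums overlapped, with medians of 20752 and 13876. Mean Fblim1 counts there were 531 and 595, and those of C77080 were 37.5 and 7.41. The part of these cells in the unstimulated values was not tested. In stimulated cells the fibroblast sums were 1620 to 2493 in wild type and 639 to 814 in CB2-/- with LPS plus interferon-γ, 245 to 2598 and 4261 to 5081 with PolyI:C, and 579.5 to 7934 and 506 to 734 with CpG. Fblim1 was higher in the genotype with the higher sum with LPS plus interferon-γ and with PolyI:C, and in CB2-/- cells, whose sums were at the low end, with CpG. The part of these cells there was not tested either.

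Set side by side, the wild-type response was larger than the genotype difference in most pairs of gene and agent, but not in all. Of 24 such pairs, 23 had no group at 0. In 15 of the 23 the wild-type response was the larger of the 2 absolute log2 values, and in 8 the genotype difference was. Among the 15 was Eloa with LPS plus interferon-γ and with CpG, where the values were close and neither was called. Of the 8, Sh3bgrl3 gave 3 and C77080, Rnf19b, Fblim1, Eloa and Ago1 gave 1 each. For Ago1 this was with CpG, where neither value was called either. Which value of a pair was larger was not tested. The genotypes did not overlap in 19 of the 24: for 6 of 8 members with LPS plus interferon-γ, 7 with PolyI:C and 6 with CpG, where 46.6%, 40.9% and 38.1% of all tested genes did not overlap. With LPS plus interferon-γ the genotype difference was called for 6 of 8 members, where 15.4% of all tested genes were called, with PolyI:C for 7 (31%) and with CpG for 5 (25.7%). The wild-type response was called for 5 members with LPS plus interferon-γ (39.7% of all genes), 6 with PolyI:C (41.1%) and 6 with CpG (36%). The members' median absolute genotype difference was 0.87, 0.74 and 0.82 on the log2 scale for LPS with interferon-γ, PolyI:C and CpG, and 0.44, 0.59 and 0.54 over all tested genes. For the wild-type response the medians were 1.11, 1.44 and 0.95 for the members and 0.72, 0.73 and 0.65 for all genes. The CB2-/- response, given as a description, had medians of 0.81, 0.40 and 0.65 for the members. Over all genes these were 0.48, 0.36 and 0.38.

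**Figure D2:**
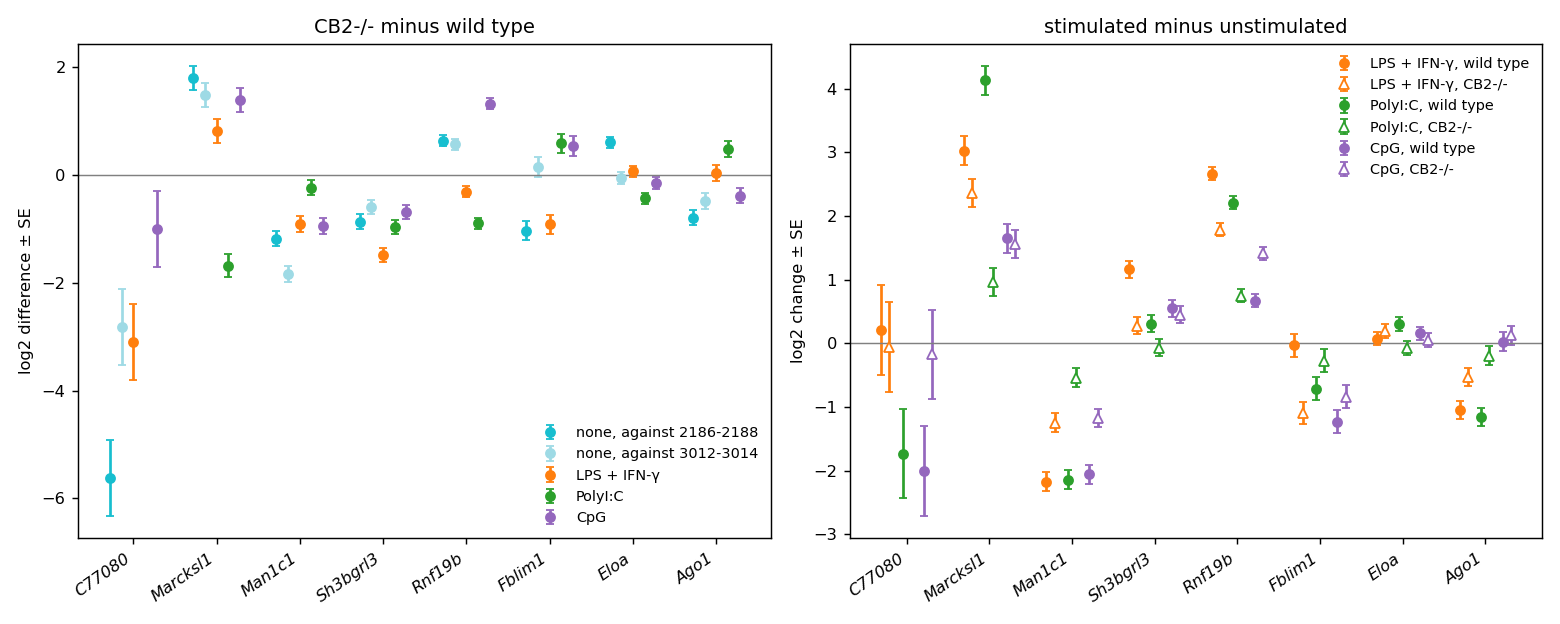
Log2 differences ± SE for each gene: CB2-/- minus wild type on the left, with unstimulated cells set against each wild-type number series, and stimulated minus unstimulated cells on the right. On the left, Marcksl1, Rnf19b, Fblim1, Eloa and Ago1 have points on both sides of 0. The points of Sh3bgrl3, Man1c1 and C77080 there are below 0 throughout. C77080 with PolyI:C is left out for CB2-/- because it is listed at 0.

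The genotype differences of stimulated cells had mixed signs relative to unstimulated ones. Of the 18 genotype differences called in stimulated cells, 11 had the sign of the unstimulated difference against libraries 2186 to 2188 and 7 had the other sign. The 7 were Marcksl1 and Eloa with PolyI:C, Rnf19b with LPS plus interferon-γ and with PolyI:C, Fblim1 with PolyI:C and with CpG, and Ago1 with PolyI:C. For Fblim1 and Eloa the unstimulated sign depended on the reference, at 0.15 ± 0.18 and -0.05 ± 0.11 against libraries 3012 to 3014. Sh3bgrl3 alone was called in 1 direction with all 3 stimuli, 1 of 8 members against 6.15% of all tested genes. Fblim1, Rnf19b and Marcksl1 were called with all 3 stimuli in mixed directions, 3 of 8 members against 0.723% of all genes and 2 of the 222 other tested genes within 10 Mb. As described, 2 of the 3 rest in part on calls that other settings ended, the LPS call of Rnf19b and the PolyI:C and CpG calls of Fblim1.

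Whether the genotype difference depended on the stimulus was tested as the difference of the differences. Its value uses no unstimulated library, and an additive shift between number series cancels in it. Its SE and p use a spread estimated from all 27 libraries, including those that chose the members. Between LPS with interferon-γ and PolyI:C, 5 of 8 members passed, against 9.24% of all genes. Marcksl1 led with 2.51 ± 0.31 (adjusted p 7.62e-06), and Fblim1 followed with -1.50 ± 0.25 (adjusted p 0.000284). Rnf19b (0.58 ± 0.14, adjusted p 0.0105), Eloa (0.50 ± 0.15, adjusted p 0.0371) and Man1c1 (-0.68 ± 0.21, adjusted p 0.0379) had smaller values. Between PolyI:C and CpG, 4 members passed against 17%: Marcksl1 (-3.08 ± 0.31, adjusted p 1e-07), Rnf19b (-2.21 ± 0.14, adjusted p 8.12e-11), Ago1 (0.86 ± 0.21, adjusted p 0.00399) and Man1c1 (0.71 ± 0.21, adjusted p 0.0168). Between LPS with interferon-γ and CpG, 3 passed against 8.01%. They were Rnf19b (-1.63 ± 0.14, adjusted p 3.6e-08), Fblim1 (-1.45 ± 0.25, adjusted p 0.000382) and Sh3bgrl3 (-0.79 ± 0.19, adjusted p 0.00803). Eloa and Man1c1 lost their calls between LPS with interferon-γ and PolyI:C when single libraries were left out (adjusted p up to 0.102 and 0.108). Man1c1 passed only without wild-type PolyI:C replicate 2, CB2-/- LPS replicate 1 or CB2-/- PolyI:C replicate 3, and Eloa only without wild-type PolyI:C replicate 1 or the same CB2-/- libraries. Both also missed the threshold with no filter (adjusted p 0.0664 and 0.0769). Quantile scaling ended the calls of Eloa (0.39, adjusted p 0.154) and Rnf19b between LPS with interferon-γ and PolyI:C (Rnf19b 0.38, adjusted p 0.165) and of Sh3bgrl3 between LPS with interferon-γ and CpG (-0.41, adjusted p 0.224). Man1c1 missed the threshold between PolyI:C and CpG with only the compared groups in the fit (adjusted p 0.0656). C77080 passed none of these tests, and passed between PolyI:C and CpG with a pseudocount of 0.1 (adjusted p 0.003).

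The responses within CB2-/- cells are given as a description, because they use the unstimulated CB2-/- libraries that chose the genes. Marcksl1 rose by 2.37 ± 0.22 with LPS plus interferon-γ, 0.96 ± 0.22 with PolyI:C and 1.56 ± 0.22 with CpG, so the PolyI:C value was far below the wild-type 4.13 ± 0.22. Rnf19b gave 1.78 ± 0.10, 0.75 ± 0.10 and 1.42 ± 0.10 in the same order, with CpG above its wild-type value. Man1c1 gave -1.25 ± 0.15, -0.54 ± 0.15 and -1.17 ± 0.15, all nearer to 0 than in wild type. Sh3bgrl3 gave 0.28 ± 0.13, -0.07 ± 0.13 and 0.45 ± 0.13, and Ago1 -0.53 ± 0.15, -0.19 ± 0.15 and 0.13 ± 0.15. Fblim1 gave -1.09 ± 0.18, -0.27 ± 0.18 and -0.84 ± 0.18, and Eloa 0.20 ± 0.11, -0.08 ± 0.11 and 0.06 ± 0.11.

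The members lie on both sides of Cnr2, which spans chr4:135895394-135920207 on the plus strand in GENCODE M21 (GRCm38). Eloa (chr4:136003368-136021763, minus strand) is nearest, its start 0.11 Mb from that of Cnr2. Man1c1 (chr4:134561690-134704290, minus) follows at -1.33 Mb and Sh3bgrl3 (chr4:134127406-134128789, minus) at -1.77 Mb, where a minus sign means a lower coordinate. Fblim1 (chr4:141576062-141606096, minus) lies at 5.68 Mb on the other side. Marcksl1 (chr4:129513581-129515985, plus) at -6.38 Mb, C77080 (chr4:129219578-129261404, minus) at -6.68 Mb and Rnf19b (chr4:129058271-129085886, plus) at -6.84 Mb are within 1 Mb of one another, and Ago1 (chr4:126435012-126468583, minus) is farthest at -9.46 Mb. Of the 3 that lie together, all were lower in CB2-/- cells with PolyI:C, while Marcksl1 and Rnf19b were higher with CpG and only Marcksl1 was higher with LPS plus interferon-γ. Of the 222 other tested genes within 10 Mb, 42 (18.9%) were called between genotypes with LPS plus interferon-γ, 77 (34.7%) with PolyI:C and 74 (33.3%) with CpG, against 15.4%, 31% and 25.7% of all tested genes. Called in 1 direction with all 3 stimuli were 22 of the 222 (9.91%), against 6.15% of all tested genes, and 67 of 854 (7.85%) on chromosome 4 as a whole, members and Cnr2 left out. By bins of 10 Mb that share was 9.49% just below Cnr2 and 10.6% just above it, 8.26% and 9.24% in the next bins out. Autosomes ranged from 4.06% on chromosome 2 to 8.45% on chromosome 19.

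**Figure D3:**
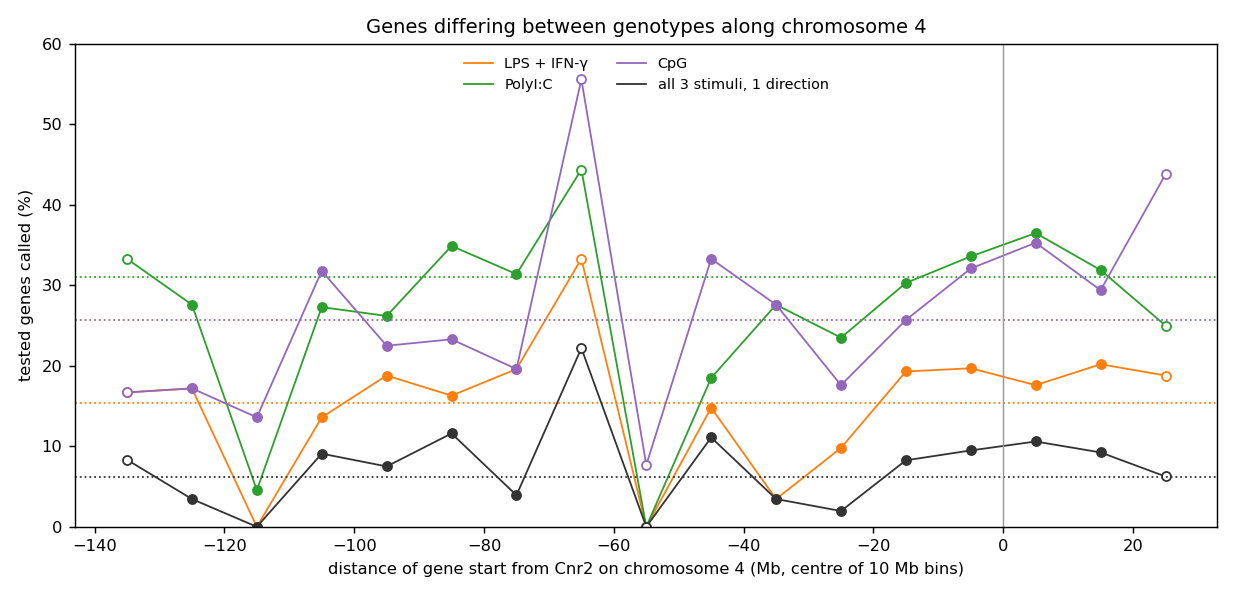
Percent of tested genes, members and Cnr2 left out, called between genotypes in 10 Mb bins of chromosome 4, by distance of the gene's start from Cnr2, for each stimulus and for all 3 in 1 direction; dotted lines are the shares over all tested genes and open points are bins with fewer than 20 genes. The bins on either side of Cnr2 lie at 9.49% and 10.6% for all 3 stimuli, above the dotted line at 6.15% and within the range of the other bins.

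Several neighbours that were not chosen differed between the stimulated genotypes as well. Named by rule, the 5 with the highest and the 6 with the lowest mean difference over the 3 stimuli were Runx3 (3.01), Pink1 (1.85), Wdtc1 (1.79), Ptafr (1.57) and Zbtb8os (0.89), and Pdpn (-7.00), Cep85 (-3.52), Hdac1 (-1.69), Znf41-ps (-1.52), Cd52 (-1.51) and Rps6ka1 (-0.91). Pdpn, the gene for the membrane glycoprotein podoplanin, had a normalised count of 3909 ± 319 (SD, n = 3) in wild type with LPS plus interferon-γ and 21.9 ± 5.01 in CB2-/- cells. Without stimulus it was 47.8 ± 58.1 in wild-type replicates 1 to 3, 119 ± 57.6 in replicates 4 to 6 and 14.7 ± 12.9 in CB2-/-, which overlapped the first set and not the second. Cep85, which encodes a centrosomal protein, ends 1068 bases upstream of Sh3bgrl3 on the same strand. It went from 656 ± 165 in replicates 1 to 3 (258 ± 21.5 in replicates 4 to 6) to 5552 ± 132 with LPS plus interferon-γ in wild type and from 128 ± 32.7 to 182 ± 16.6 in CB2-/- cells. Hdac1, a histone deacetylase gene, ends 118 bases from the end of Marcksl1 on the other strand. It was lower in CB2-/- cells with LPS plus interferon-γ (-1.49 ± 0.15), PolyI:C (-2.20 ± 0.15) and CpG (-1.39 ± 0.15; adjusted p 3.03e-07, 9.94e-11 and 2.58e-07), while Marcksl1 was higher with the first and the last of these. Runx3, a transcription factor gene 0.77 Mb from Cnr2, differed between the wild-type number series too: 29.9 ± 16.1 in unstimulated replicates 1 to 3, 188 ± 36.1 in replicates 4 to 6 and 255 ± 68.9 in unstimulated CB2-/- cells.

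**Figure D4:**
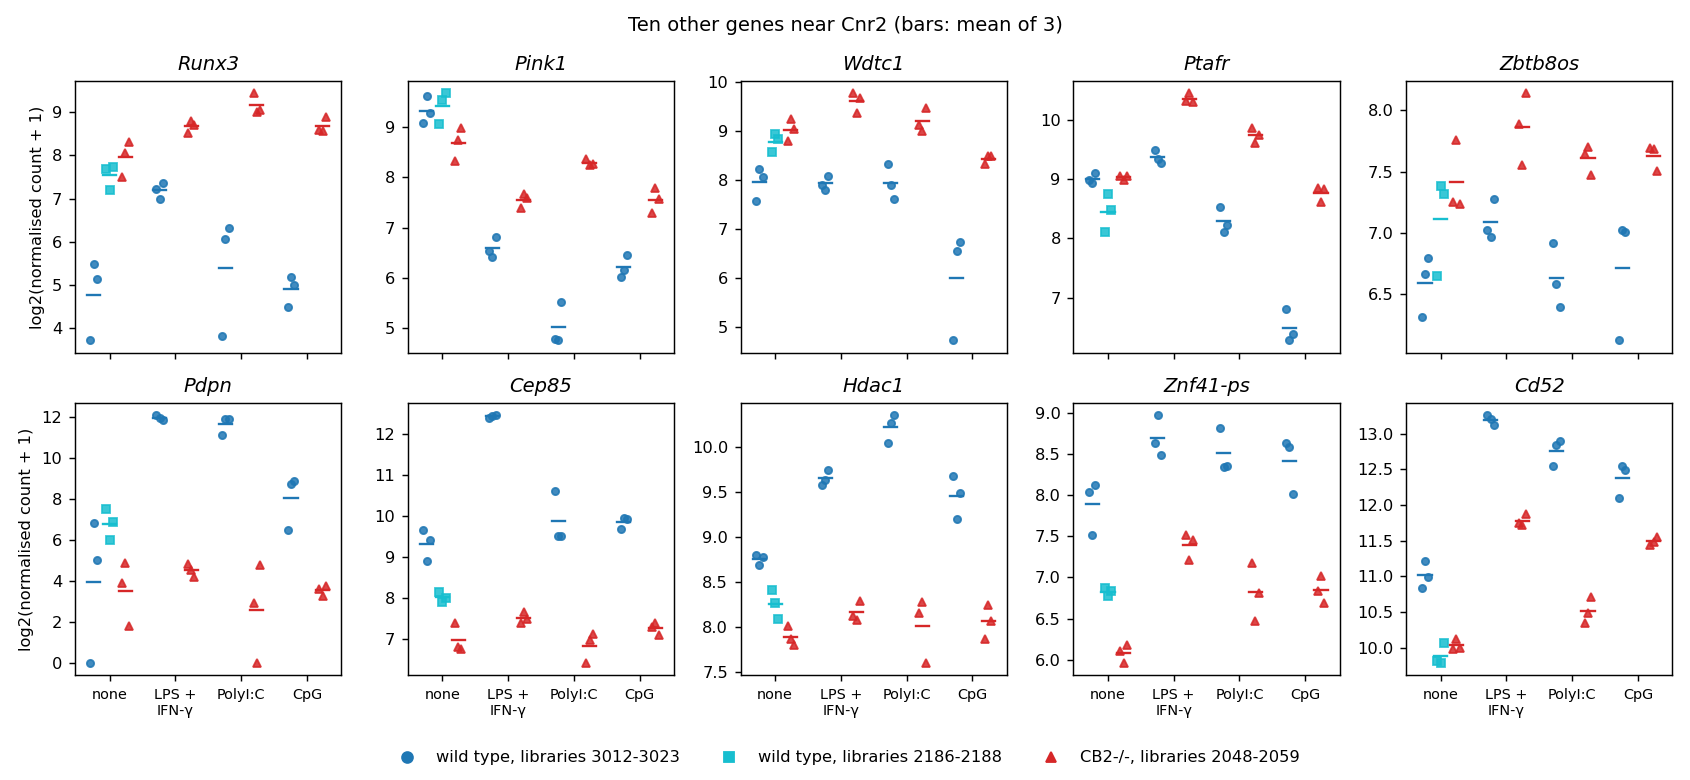
Normalised counts of 10 other genes within 10 Mb of Cnr2, drawn as for the 8 members: the upper row has the 5 with the highest and the lower row the 5 with the lowest mean difference, CB2-/- minus wild type, over the 3 stimuli among the genes named by rule. In wild type Pdpn rises with all 3 stimuli and Cep85 with LPS plus interferon-γ, and both are lower in stimulated CB2-/- cells; Runx3, Cep85, Cd52, Znf41-ps, Ptafr and Hdac1 also differ between the wild-type number series.

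Family members and partners of the 8 genes were compared as their relatives, 20 of 23 of them being tested. Off chromosome 4, 18 were tested. With LPS plus interferon-γ 4 were called higher and 4 lower in CB2-/- cells, with PolyI:C 3 higher and 7 lower, and with CpG 2 higher and 4 lower. Of all tested genes 15.4%, 31% and 25.7% were called in either direction. The median log2 differences of the 18 were -0.35, -0.19 and -0.18, against -0.06, -0.03 and 0.01 over all tested genes. Called in 1 direction with all 3 stimuli were 3 of the 18, against 6.15% of all tested genes. Rnf19a, the paralogue of Rnf19b, was higher at 0.52, 0.75 and 0.55. Sh3bgrl2, a relative of Sh3bgrl3, was higher at 1.39, 1.29 and 1.72. Fermt3, which encodes the kindlin of blood cells, was lower at -0.74, -1.37 and -0.58. Marcks, the paralogue of Marcksl1 on chromosome 10, was lower with PolyI:C (-0.81) and did not pass with the other agents. Of the wild-type responses off chromosome 4, 7, 7 and 8 of 18 rose and 4, 1 and 1 fell with LPS plus interferon-γ, PolyI:C and CpG. Over all tested genes the response was called in either direction for 39.7%, 41.1% and 36%. Eloc, the partner of elongin A, rose by 1.23, 1.49 and 1.10, while Eloa moved by no more than 0.30. Of Ago3 and Ago4, both on chromosome 4 like Ago1, Ago4 fell with all 3 agents in wild type (-1.89, -2.48 and -2.16), and Ago3 was lower in CB2-/- cells with PolyI:C (-0.88), the one genotype call of the pair.

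The gene with the most similar profile over the 27 libraries lay off chromosome 4 for each of the 7 members given here. By Pearson's r of log2(normalised count + 1), which includes the stimulus, genotype and number series differences that all these genes share, Marcksl1 was most like Mmp14 (0.983), Man1c1 like Selenop (0.976), Rnf19b like Slamf7 (0.973), Ago1 like Tpcn1 (0.935) and Sh3bgrl3 like Pabpc1 (0.930). Eloa was most like Krcc1 (0.877) and C77080 like Eef1a1 (0.772). These are the highest of 14668 values each and are given as a description.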

How the data were processed

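RNA of 27 microglial libraries was read in single-end 75 bp reads. The submitters' processing notes name CASAVA 1.8, kallisto and DESeq2 but not their roles. A genome build is not given in the sources used here. Deposited by the authors were normalised counts, a signal that is never negative and not whole-numbered. Depth in reads is therefore unknown and no count model was run. The authors' batch-corrected table, deposited on a log2 scale and handled as a score, served as an alternative; the batches it removed are not given.

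Groups came from the labels, and unstimulated wild type was split by library number. Replicates were numbered in record order. Nothing in the labels ties a library to an animal or culture of its own, so p-values measure the spread between libraries, which may be technical. Values were taken as log2(value + 1). A filter (10 or more in 3 or more libraries) kept 14668 of 23995 genes, and limma 3.58.1 (R 4.3.3) fitted them (9 group means in 1 fit of all 27 libraries, eBayes with trend, two-sided, Benjamini-Hochberg over all tested genes, called under 0.05). All 8 members passed that filter. No library was dropped or imputed. The steps were tested on simulated data.

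The members, lists and tests were chosen with earlier results of these data known. Named neighbours are the 6 highest and 6 lowest mean genotype differences among other genes within 10 Mb that were called in 1 direction with all 3 stimuli, averaged 100 or more in the higher genotype and did not overlap. Each member's most similar gene and a list of relatives were named besides. Not every gene that these rules pick is reported here. Positions are from GENCODE M21 (GRCm38), to which 23933 of 23995 gene identifiers matched, and promoters from RefSeq (GRCm38.p6). Alternatives varied the pseudocount (0.1, 5), filter, scaling, variance model, library weights, groups in the fit, reference libraries, series shift, input table, distance (5 and 20 Mb) and fold, and left out each library. Python 3.11.15 with pandas 2.3.3 and matplotlib 3.10.9 drew the figures.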

Additional observations from a re-analysis of the deposited data

Results flagged for a closer look

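Of 24 tests of whether a member's genotype difference depended on the stimulus, 12 passed (limma, Benjamini-Hochberg over all tested genes), and these were singled out because the difference between stimuli was itself tested. Between LPS with interferon-γ and PolyI:C the differences in log2 were 2.51 for Marcksl1, -1.50 for Fblim1, -0.68 for Man1c1, 0.58 for Rnf19b and 0.50 for Eloa. Between LPS with interferon-γ and CpG they were -1.63 for Rnf19b, -1.45 for Fblim1 and -0.79 for Sh3bgrl3. Between PolyI:C and CpG they were -3.08 for Marcksl1, -2.21 for Rnf19b, 0.86 for Ago1 and 0.71 for Man1c1. No library of the 6 unstimulated wild-type ones stood apart by its gap to the others for any of the 8 members or Cnr2 (9 groups looked at). This rule looks for 1 library apart from the rest. It cannot flag a split between replicates 1 to 3 and 4 to 6, such as C77080 and Fblim1 had. Smaller groups were not looked at.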

How the results depend on the processing

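No paired analysis was possible because replicate numbers follow record order and pair nothing. Of the members' single values under other settings with all libraries, 638 kept their side of the threshold, 29 lost the call and 21 gained one. A further 8 reversed, with a call in the main or the other setting. Values less the series shift are among these. With 1 library left out, 538 kept their side, 35 lost the call and 3 gained one. A change of sign where neither value was called counts as kept. Ago1 between genotypes with LPS plus interferon-γ (-0.04 to 0.10 with 1 library left out) is an example. The cause of these changes was not tested.

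The number of members called moved by over 1.5 times in 2 comparisons. With PolyI:C it was 4 in the batch-corrected table, against 7. The count less the number series shift, also 4, is a description with no test. Between LPS with interferon-γ and PolyI:C the number of members called was 3 with no filter, 3 with quantile scaling and 3 without trend, against 5. It was 3 to 5 with 1 library left out.

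The series shift rests on libraries 2186 to 2188, which entered the choice of the members. Reversed values less the series shift were -0.59 (Fblim1, PolyI:C), -0.64 (Fblim1, CpG), 0.23 (Eloa, PolyI:C), 0.51 (Eloa, CpG), -1.28 (Runx3) and 0.41 (Rps6ka1, both LPS with interferon-γ) and 0.24 (Cd52, CpG). Fblim1 with CpG was -0.0286 in the batch-corrected table. Quantile scaling reversed the wild-type responses of Eloa (-0.30 with LPS, -0.10 with PolyI:C) and Sh3bgrl3 (-0.33 with PolyI:C); it moved the median of all genes by -0.11 for the LPS response, 0.14 for CpG and 0.16 for LPS against CpG, and the share of higher calls from 38.7 to 55.0% for the genotype difference with LPS, from 21.96 to 35.2% for LPS against CpG and from 35.03 to 45.1% for PolyI:C against CpG.

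Less the series shift, 1214 genes were called between genotypes with LPS (2266 in the main test), 2529 with PolyI:C (4551) and 1775 with CpG (3771), and 18, 42 and 36 others within 10 Mb (42, 77 and 74). With LPS, 5235 were called with library weights, 4080 in the batch-corrected table and 4526 with only the compared groups fitted, and 100, 73 and 75 others within 10 Mb. Fitting only the compared groups gave 2480 for the CpG genotype difference, 2673 genes and 49 others for the CpG response (5285 and 101), and 26 others for PolyI:C against CpG (41). Library weights gave 131 others for the LPS response (85). Between LPS and PolyI:C, library weights gave 2685 genes and 50 others and the authors' batch-corrected values gave 2323 genes and 37 others, against 1356 and 21, with 13 to 26 others when 1 library was left out. The share of other genes called in 1 direction with all 3 stimuli was 13.2% within 5 Mb, 9.33% within 20 Mb and 7.21% at 1.5-fold, against 9.91%. LPS here means LPS with interferon-γ.

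Depth in reads is unknown, so values near 0, as of C77080, carry an error that the libraries' spread alone shows.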

Other observations

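Pdpn and Cep85, both within 10 Mb of Cnr2, lacked in CB2-/- cells the rise they showed in wild type with LPS and interferon-γ. Wild-type Pdpn rose by 7.99 ± 1.17 on the log2 scale (adjusted p 5.07e-06, limma) and the CB2-/- change was 0.98 ± 1.17. Wild-type Cep85 rose by 3.11 ± 0.24 (adjusted p 1.23e-10) and the CB2-/- change was 0.53 ± 0.24. Pink1, a mitochondrial kinase gene, fell with all 3 stimuli in wild type, by -2.73 ± 0.22, -4.29 ± 0.22 and -3.11 ± 0.22 with LPS and interferon-γ, PolyI:C and CpG, and changed by -1.13 ± 0.22, -0.39 ± 0.22 and -1.13 ± 0.22 in CB2-/- cells. Ptafr, the gene for the receptor of platelet-activating factor, fell with CpG in wild type (-2.50 ± 0.15) and changed by -0.26 ± 0.15 in CB2-/- cells.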
